A study of Mus musculus with 27 samples.

Results

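Neutrophils sorted from mammary tumours of mice that received cisplatin together with an antibody against CSF-1R (the combination, 4 libraries) were compared with neutrophils from mice that received cisplatin together with a control antibody (cisplatin, 3 libraries). These 7 libraries were chosen by their treatment labels from 27 in the series, which also held 4 neutrophil libraries of anti-CSF-1R alone, 4 of control antibody alone and 12 macrophage libraries. All genes were compared: 9996 were listed and 8828 could be tested. Every mouse was K14cre;Cdh1F/F;Trp53F/F, a model in which Cre under the keratin 14 promoter removes E-cadherin and p53 from epithelium, so the mammary tumours arise in the animal itself and the deletion is not aimed at neutrophils. Mice of both compared groups were sacrificed 1 day after their second cisplatin dose, whereas the cisplatin-naive mice of the anti-CSF-1R and control groups were sacrificed at a tumour size of 100 mm2. The sources used here do not give mouse age, antibody clone, doses or whether libraries of a group came from separate mice. The spread behind each p-value is therefore that of these libraries and may be technical.

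Neutrophils are short-lived phagocytes that depend on G-CSF, carry granule proteins and S100A8/S100A9, and reach tumours through receptors such as CXCR2. CSF-1R, the receptor for CSF-1 and IL-34, sustains macrophages, and its transcript is also found in other myeloid cells. Cisplatin crosslinks DNA. Type I interferons signal through IFNAR to a complex with STAT2 and IRF9, which binds the interferon-stimulated response element of antiviral genes, while interferon-gamma acts in part through IRF1 on guanylate-binding proteins, immunity-related GTPases, MHC genes and the chemokines CXCL9, CXCL10 and CXCL11.

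Values are the authors' normalised read counts, and 1 is the lowest value listed. Many values under 1000 had lost their decimal point, and its place was restored by requiring a whole number of reads in each library and by a model of each gene. A value whose place stayed uncertain (probability under 0.95) is called not decoded and was left out, which took 6.0% of the values of the 7 libraries. Fold changes are combination over cisplatin on the log2(value + 1) scale, with limma's moderated test over the 15 neutrophil libraries and Benjamini-Hochberg adjustment over all 8828 genes. Genes whose values in all 7 libraries allow only 1 decimal place, 1245 in number, are called unambiguous, because none of these values rests on the model. Their SE and p-values draw on all 15 neutrophil libraries, where other values can rest on the model. In every other gene at least 1 of the 7 values allowed another place, so fold changes and overlap there are as decoded.

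The 7 libraries held 1015517, 1807166, 1319128 and 3281764 decoded reads in the combination and 998328, 1690015 and 1550757 in cisplatin. Replicates correlated across genes at 0.94 to 0.963 in the combination and 0.934 to 0.947 in cisplatin. The first principal component of the 15 neutrophil libraries (25.5% of the variance over 5174 genes) placed combination replicate 2 at 42.5 and cisplatin replicate 2 at 28.1, against -19.4 to 8.15 for the other 13, so some list medians are also given without these 2 libraries.

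The libraries carried neutrophil markers. Csf3r, the G-CSF receptor, had 7304, 12863, 9702 and 8349 normalised reads in the combination and 7456, 9385 and 7134 in cisplatin (log2 fold change 0.24 ± 0.30 SE, adjusted p = 0.894), against 93.1 to 399 in the 12 macrophage libraries. S100a8, a calcium-binding alarmin of neutrophils, had 7004, 21187, 10342 and 12558 in the combination and 4724, 20258 and 4747 in cisplatin (log2 fold change 0.62 ± 0.52 SE, adjusted p = 0.789). Both groups overlapped in these genes, and replicate 2 was the highest library of each group. Of 26 neutrophil surface and signalling markers 24 were tested (Ly6g was not analysed here), 16 had a log2 fold change above 0, and the median was 0.24. The target of the antibody, Csf1r, had 962, 606, 1248 and 945 in the combination and 976, 520 and 1044 in cisplatin (log2 fold change 0.17 ± 0.29 SE, adjusted p = 0.923), with overlapping groups. In bulk libraries fewer cells of a type and less RNA per cell cannot be told apart, here and in every result that follows.

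Across the genome 1 gene passed an adjusted p of 0.05, the guanylate-binding protein gene Gbp4, which was higher in the combination (0.0113% of genes tested), and none was lower. At an unadjusted p under 0.05, 449 genes were higher (5.09%) and 361 lower (4.09%), and limma-voom on the decoded reads called none in either direction. Log2 fold changes were above 0 for 50.7% of genes, with a median of 0.00725. The values of the 2 groups did not overlap for 507 genes that were higher (5.74%) and 367 that were lower (4.16%). In simulated libraries with the same genes and group sizes, the test recovered 89 of 99 genes changed 4-fold (89.9%) and 33 of 98 changed 2-fold (33.7%), with 21 false among 143 calls, so most differences of about 2-fold would not have been called at this size.

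Genes that answer interferon lay mostly above 0 and genes of glycolysis and hypoxia mostly below 0, and neutrophil, granule and inflammatory genes had medians between these. Some small marker lists of other cell types, given further on, also had medians above 1, and others had medians below 0. The type I interferon-stimulated genes had log2 fold changes above 0 for 54 of 54 members tested (62 listed, 59 measured), with a median of 1.15 against 0.00725 for all genes, and none passed the adjusted threshold. Of the 54, 35 had no overlap between the groups and higher values in the combination, against 5.74% of all genes, and none had lower values without overlap. An unadjusted p under 0.05 was reached by 29. The interferon-gamma-responsive GTPases and MHC regulators had 23 of 24 tested members above 0, a median of 1.38, and 15 without overlap, and Gbp4 was the member that passed.

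**Figure D1:**
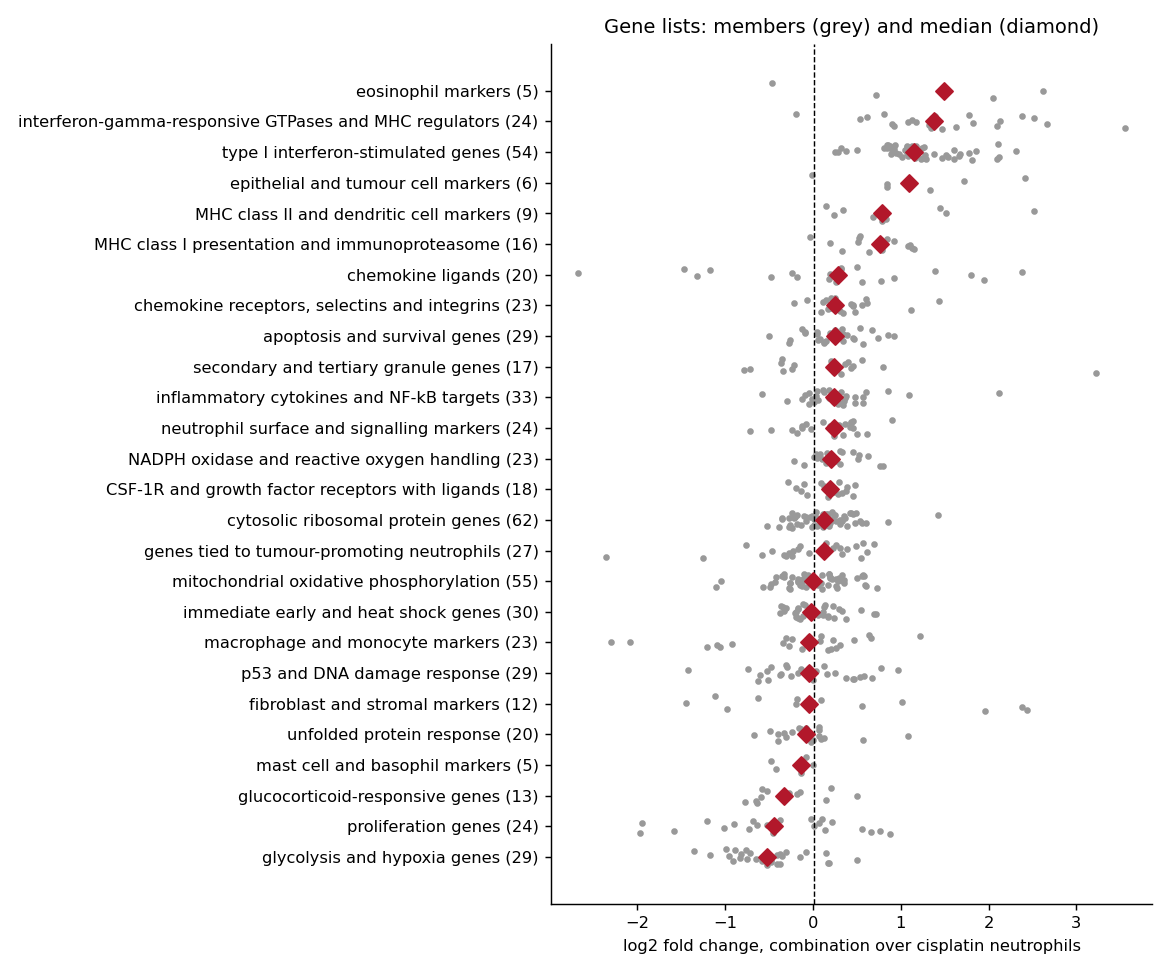
Log2 fold change of the combination over cisplatin (x axis, log2(value + 1) scale) for the genes of each list with at least 5 genes tested (rows, number tested in brackets), grey points being genes and diamonds the median of the list. The diamonds of both interferon lists lie at 1.15 and 1.38 and that of glycolysis and hypoxia at -0.52.

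Most members of these 2 lists had at least 1 value with a restored decimal place, so the unambiguous members are given alone. Among unambiguous genes, 23 of 23 type I members lay above 0 (median 1.08) and 16 were higher without overlap, against 67 of 1245 unambiguous genes (5.38%). Of the unambiguous members of the GTPase list 6 of 7 lay above 0 (median 1.32) and 4 were higher without overlap. Without the 2 libraries that stood apart the type I median was 0.83. Reads of close paralogs in the guanylate-binding, IFIT, OAS, Ifi200, Schlafen and MHC families may be shared between copies, and the sources used here do not say how the authors assigned them.

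Transcription factors of the response had higher values in the combination. Irf7, the factor that amplifies interferon production, had 549, 633, 385 and 460 normalised reads in the combination and 197, 124 and 158 in cisplatin, all unambiguous (log2 fold change 1.66 ± 0.40 SE, unadjusted p = 0.000723, adjusted p = 0.188). Stat2, a subunit of the factor that type I interferon activates, had 522, 709, 379 and 548 in the combination and 254, 212 and 191 in cisplatin (log2 fold change 1.27 ± 0.32 SE, adjusted p = 0.188). In both genes the lowest combination library, replicate 3, lay above the highest cisplatin library. Irf1, which drives interferon-gamma targets, had 1145, 1090, 1071 and 1317 in the combination and 792, 569 and 183 in cisplatin (log2 fold change 1.40 ± 0.47 SE, adjusted p = 0.331). These groups did not overlap either, and cisplatin replicate 3 was far below the others in Irf1, whose log2 fold change was 0.7781 without that library.

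Antiviral effectors had higher values in the combination too. Rsad2, which encodes viperin, had 5250, 13001, 3386 and 5200 in the combination and 2373, 1838 and 2192 in cisplatin (log2 fold change 1.47 ± 0.72 SE, adjusted p = 0.565). Isg15, a ubiquitin-like modifier, had 991, 1859, 738 and 1441 in the combination and 614, 437 and 482 in cisplatin (log2 fold change 1.23 ± 0.51 SE, adjusted p = 0.484). Herc6, the ligase that attaches ISG15 in mice, had 730, 1207, 608 and 647 in the combination and 381, 156 and 270 in cisplatin (log2 fold change 1.602 ± 0.39 SE, adjusted p = 0.188). In these 3 genes the groups did not overlap, combination replicate 2 was the highest library and combination replicate 3 the lowest of its group. Ifit3, an RNA-binding antiviral protein, had 538, 862, 407 and 417 in the combination and 188, not decoded and 160 in cisplatin (log2 fold change 1.61 ± 0.47 SE, adjusted p = 0.264). Ifitm3, a membrane protein that blocks virus entry, had 3319, 6197, 2633 and 4508 in the combination and 1712, 1969 and 1482 in cisplatin (log2 fold change 1.21 ± 0.47 SE, adjusted p = 0.428). Among the 54 members the log2 fold changes ran from 0.25 for Ifitm1 to 2.31 for Bst2, which encodes the restriction factor tetherin. Bst2 was low, at 33.3, 11.6, 29.4 and 53.5 in the combination and 11.4, 1 and 7.13 in cisplatin, so its fold change rests on few reads.

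**Figure D2:**
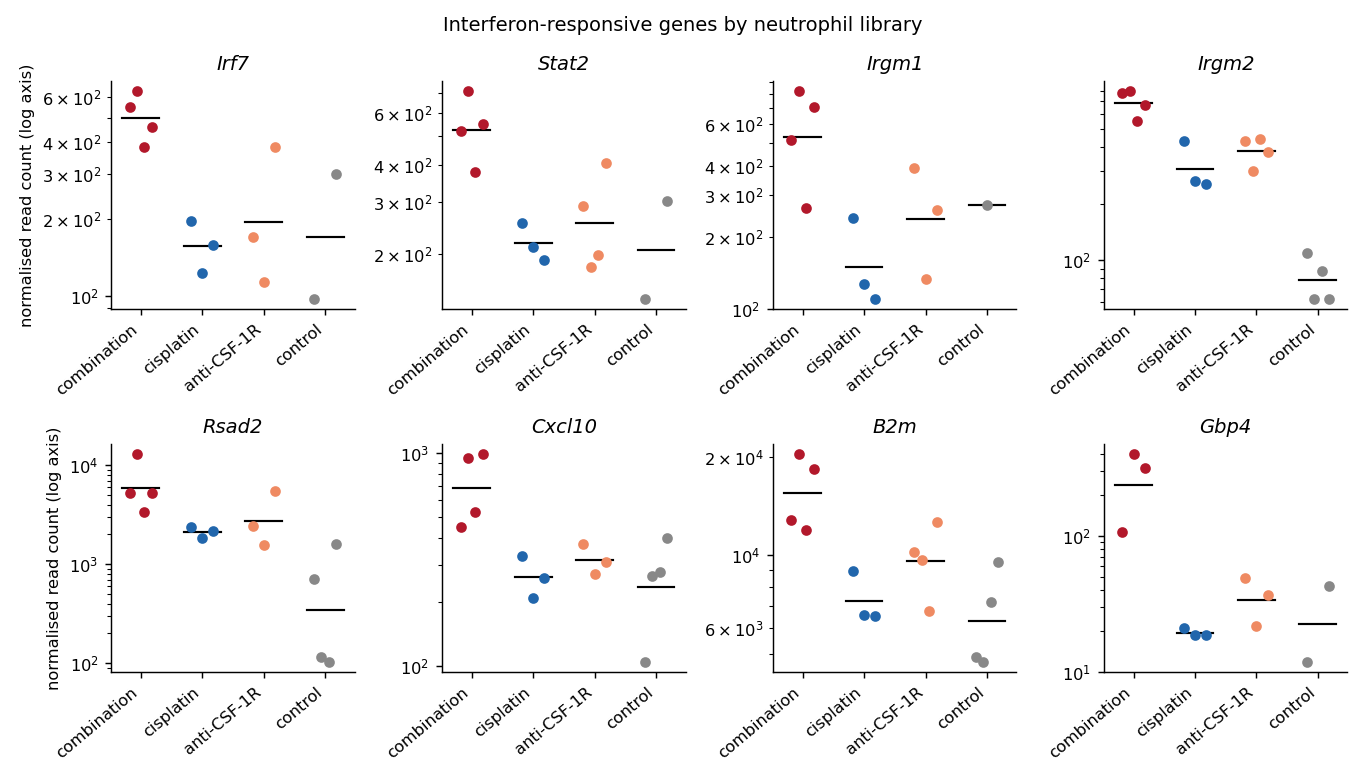
Normalised read count (y axis, log scale) of 8 interferon-responsive genes in each neutrophil library, by group, with the group mean of the logs as a line and no point where the value was not decoded. For each gene the combination libraries lie above the cisplatin libraries, for example 385 to 633 against 124 to 197 for Irf7.

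Promoters of these genes were searched for GAAA, any 2 bases and GAAA, the core of the interferon-stimulated response element, on both strands of RefSeq windows that run from 250 bases before to 50 bases after each transcript start (GRCm38.p6). The letters stood in 18 of 44 matched type I members (40.9%) and 9 of 15 matched members of the GTPase list (60%), against 276 of 6769 matched genes tested (4.08%) and 1079 of 27025 genes in the table (3.99%). Of 25 matched glycolysis and hypoxia genes 1 held them (4%), and of 25 matched inflammatory genes none did. The windows below belong to genes described here whose window holds a match: Stat2 (chr10:128270248-128270547, plus strand), Ifit3 (chr19:34583279-34583578, plus strand), Rsad2 (chr12:26456403-26456702, minus strand), Isg15 (chr4:156200769-156201068, minus strand), Cxcl10 (chr5:92348840-92349139, minus strand) and Irgm2 (chr11:58214727-58215026, plus strand). They are written 5' to 3' along the gene's strand, with the matched letters in capitals.
Stat2: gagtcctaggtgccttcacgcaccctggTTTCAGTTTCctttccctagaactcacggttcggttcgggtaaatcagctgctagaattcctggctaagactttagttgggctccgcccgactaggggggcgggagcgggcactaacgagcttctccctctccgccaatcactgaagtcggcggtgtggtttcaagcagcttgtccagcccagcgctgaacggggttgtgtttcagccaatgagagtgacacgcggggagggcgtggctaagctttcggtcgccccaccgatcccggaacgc
Ifit3: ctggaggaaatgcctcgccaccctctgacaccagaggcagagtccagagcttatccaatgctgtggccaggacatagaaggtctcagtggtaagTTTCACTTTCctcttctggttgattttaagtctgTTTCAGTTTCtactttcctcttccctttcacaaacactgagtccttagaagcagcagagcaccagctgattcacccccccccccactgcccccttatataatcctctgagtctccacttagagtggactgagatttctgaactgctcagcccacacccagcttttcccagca
Rsad2: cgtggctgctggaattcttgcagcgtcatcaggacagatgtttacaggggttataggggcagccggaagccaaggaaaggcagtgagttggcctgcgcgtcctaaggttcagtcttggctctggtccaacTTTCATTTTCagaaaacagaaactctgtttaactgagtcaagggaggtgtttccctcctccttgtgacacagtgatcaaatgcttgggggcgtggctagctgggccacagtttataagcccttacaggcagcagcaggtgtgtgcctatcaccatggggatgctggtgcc
Isg15: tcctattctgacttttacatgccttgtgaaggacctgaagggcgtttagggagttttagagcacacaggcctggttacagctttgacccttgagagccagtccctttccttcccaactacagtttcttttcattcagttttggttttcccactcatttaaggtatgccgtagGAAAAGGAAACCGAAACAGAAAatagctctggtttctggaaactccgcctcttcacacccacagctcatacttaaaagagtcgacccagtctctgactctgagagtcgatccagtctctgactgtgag
Cxcl10: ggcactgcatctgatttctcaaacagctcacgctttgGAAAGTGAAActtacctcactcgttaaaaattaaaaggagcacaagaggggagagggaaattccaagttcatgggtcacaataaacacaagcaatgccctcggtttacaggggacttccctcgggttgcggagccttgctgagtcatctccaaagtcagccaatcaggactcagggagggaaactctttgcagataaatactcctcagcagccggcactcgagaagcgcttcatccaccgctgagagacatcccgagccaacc
Irgm2: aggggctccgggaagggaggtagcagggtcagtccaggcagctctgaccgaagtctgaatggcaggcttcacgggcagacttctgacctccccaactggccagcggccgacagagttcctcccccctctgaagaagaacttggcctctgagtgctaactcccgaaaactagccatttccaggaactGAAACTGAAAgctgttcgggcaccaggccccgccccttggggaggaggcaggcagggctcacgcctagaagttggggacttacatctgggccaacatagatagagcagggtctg
Isg15 holds 3 overlapping matches, Ifit3 holds 2 and the other 4 hold 1 each, at 222 bases before the start in Stat2, 213 in Cxcl10, 120 in Rsad2 and 64 in Irgm2. The windows of Irf7 and Cxcl9 hold no match, which says only that these letters are not in those windows. The search describes sequence and shows neither a binding site nor a cause.

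Gbp4 (GRCm38 chromosome 5, 105115767 to 105139586, minus strand) encodes a guanylate-binding protein of the interferon-gamma response. It had 106, 399, not decoded and 316 normalised reads in the combination and 20.9, 18.6 and 18.5 in cisplatin (log2 fold change 3.55 ± 0.51 SE, adjusted p = 0.0318). The 3 decoded combination libraries lay above all cisplatin libraries. The size of this difference rests on restored decimal points: each cisplatin value could also be 10 times as large, at 209, 186 and 185, which the model gave a low probability, and combination replicate 3 could be 29.4 or 294. Over 18 alternatives that gave a value the log2 fold change was 2.81 to 4.13 and the adjusted p 0.00315 to 0.290, above 0.05 in 10 of them, among which were the fits without combination replicate 2, combination replicate 4, cisplatin replicate 2 or cisplatin replicate 3. Decoding blind to the treatment groups gave no value for Gbp4, so its call was not tested without use of the group labels. The groups would overlap if the larger cisplatin values were the true ones.

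Other guanylate-binding and immunity-related GTPase genes, which restrict microbes inside cells, lay in the same direction without passing. Irgm1 had 513, 821, 266 and 704 in the combination and 241, 127 and 110 in cisplatin (log2 fold change 1.82 ± 0.42 SE, adjusted p = 0.183). Irgm2 had 781, 792, 549 and 668 in the combination and 428, 262 and 255 in cisplatin (log2 fold change 1.17 ± 0.26 SE, adjusted p = 0.167). Both genes are unambiguous, their groups did not overlap, and combination replicate 3 and cisplatin replicate 1 were the nearest libraries. Gbp2b had 102, 138, 62.1 and 135 in the combination and 28.4, 40.6 and 17.1 in cisplatin (log2 fold change 1.90 ± 0.36 SE, adjusted p = 0.119), where the cisplatin values also allow a place 10 times higher. Ciita, the master regulator of MHC class II, had 27.02, 5.81, not decoded and 25.4 in the combination and 5.69, 1 and 1 in cisplatin (log2 fold change 2.52 ± 0.67 SE, adjusted p = 0.198). These levels rest on few reads, and the nearest libraries of Ciita, at 5.81 and 5.69, hold the same number of reads and differ only by their library factors.

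The interferon-inducible chemokines, ligands of CXCR3 that attract T cells, had higher values in the combination as well. Cxcl10 had 451, 947, 528 and 988 in the combination and 328, 210 and 258 in cisplatin, all unambiguous (log2 fold change 1.39 ± 0.37 SE, adjusted p = 0.198). Cxcl9 had 139, 229, not decoded and 355 in the combination and 34.1, 57.6 and 38.5 in cisplatin (log2 fold change 2.38 ± 0.39 SE, adjusted p = 0.06), again with cisplatin values that allow a place 10 times higher. Cxcl11 had 33.3, 85.2, 34.3 and 156 in the combination and 22.7, 15.2 and 15.7 in cisplatin (log2 fold change 1.78 ± 0.51 SE, adjusted p = 0.264). GENCODE vM21 lists Cxcl11 as a polymorphic pseudogene, and whether these mice make the protein was not tested. The groups did not overlap in these 3 genes as decoded. Chemokine ligands as a list had 13 of 20 tested members above 0 (median 0.29), but with 1 library left out the median ran from -0.224 to 0.598, and below 0 without combination replicate 2, combination replicate 4 or cisplatin replicate 1. Cxcl2, a ligand of CXCR2, had 18292, 82432, 14238 and 20567 in the combination and 12707, 73585 and 30415 in cisplatin (log2 fold change -0.24 ± 0.58 SE, adjusted p = 0.949), with overlap and with replicate 2 highest in each group.

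MHC class I presentation genes had 15 of 16 tested members above 0, a median of 0.76, and 6 that were higher without overlap, against 5.74% of all genes. B2m, the light chain of MHC class I, had 12776, 20343, 11912 and 18270 in the combination and 8946, 6546 and 6533 in cisplatin (log2 fold change 1.09 ± 0.33 SE, adjusted p = 0.272). H2-K1, a class I heavy chain, had 6135, 8471, 7151 and 6165 in the combination and 5837, 4539 and 3330 in cisplatin (log2 fold change 0.64 ± 0.33 SE, adjusted p = 0.595). Both genes are unambiguous and did not overlap, H2-K1 by a narrow gap between combination replicate 1 and cisplatin replicate 1. Cd274, which encodes the checkpoint ligand PD-L1, had 2683, 5946, 3810 and 4477 in the combination and 2593, 4281 and 1684 in cisplatin (log2 fold change 0.61 ± 0.37 SE, adjusted p = 0.686), and its groups overlapped.

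The receptors of these pathways had overlapping groups. Ifnar1 had 279, 535, 327 and 424 in the combination and 243, 332 and 428 in cisplatin (log2 fold change 0.22 ± 0.28 SE, adjusted p = 0.896). Ifngr1 had 397, 283, 400.2 and 299 in the combination and 364, 472 and 345 in cisplatin (log2 fold change -0.20 ± 0.25 SE, adjusted p = 0.893). Neither receptor separated the groups, and Ifnb1 and Ifng, the ligands, were not analysed here.

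Summed over a list, with the most probable decimal place for every value, the type I genes gave 62930, 117900, 46200 and 61760 normalised reads in the combination and 35290, 32660 and 32750 in cisplatin, without overlap. The GTPase list gave 11680, 21470, 9848 and 17180 in the combination and 6435, 8403 and 4870 in cisplatin, also without overlap. Combination replicate 3 had the lowest sum of its group in both lists. The sums in neutrophils of mice without cisplatin were 35080, 29110, 16230 and 63190 for type I genes with anti-CSF-1R and 17440, 14200, 15070 and 35930 with control antibody. There replicate 4 was the highest library of each group and the groups overlapped.

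**Figure D3:**
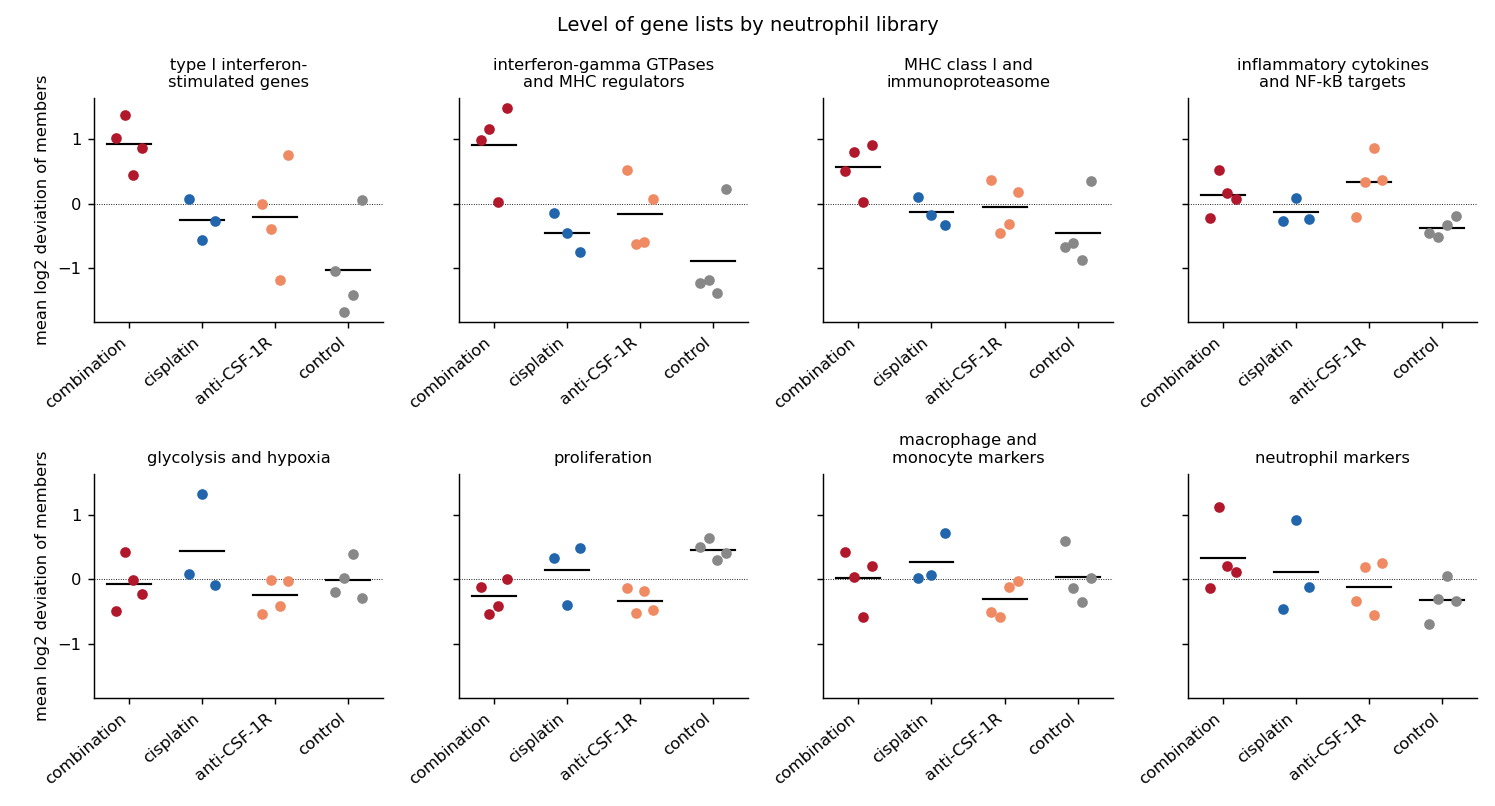
Level of 8 gene lists (y axis, mean log2 deviation of the members from their mean over the 15 neutrophil libraries) in each neutrophil library, by group, with the group mean as a line. For type I genes the combination lies at 0.447 to 1.38 and cisplatin at -0.561 to 0.0784, and in the glycolysis and hypoxia panel cisplatin replicate 2 stands at 1.33.

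Markers of cells that could accompany sorted neutrophils were measured beside these lists. Of 22 T and NK cell markers 5 were measured, with summed values of 114 to 183 in the combination and 25.01 to 81.5 in cisplatin, which did not overlap. Its 3 tested members lay above 0 (median 1.43, and 0.59 without combination replicate 2 and cisplatin replicate 2), and Cd3e was not analysed here. Of 18 MHC class II and dendritic cell markers 14 were measured, with sums of 2804 to 13410 in the combination and 1871 to 7414 in cisplatin, which overlapped, and 9 of 9 tested members lay above 0 (median 0.79, and 0.34 without those 2 libraries). Of 9 eosinophil markers 5 were measured, with sums of 161 to 768 in the combination and 288 to 632 in cisplatin, and 4 of 5 lay above 0 (median 1.49). The member below 0 was Siglecf (log2 fold change -0.47), which is also on the list of genes tied to tumour-promoting neutrophils. Siglecf held most of these sums, at 118 to 710 in the combination and 252 to 584 in cisplatin. Higher values without overlap were found for 2 of the 5 members, against 5.74% of all genes. Of 21 epithelial and tumour cell markers 8 were measured, with sums of 45.5 to 211 in the combination and 31.1 to 85.3 in cisplatin, and 5 of 6 tested members lay above 0 (median 1.09). Of 11 B and plasma cell markers 7 were measured, with sums of 13.7 to 158 in the combination and 15.4 to 28.6 in cisplatin, and 3 of 3 tested members lay above 0 (median 1.07). The sums of the eosinophil, epithelial and B cell lists overlapped between the groups, and these medians lie beside those of the interferon lists. Other marker lists had lower medians. These were 0.41 for 2 tested erythroid and platelet markers and -0.05 for 12 tested fibroblast and stromal markers. For 5 tested mast cell and basophil markers the median was -0.13, and for 3 tested endothelial markers -0.59. The sums of these lists overlapped between the groups as well. The part of such cells in the interferon differences was not tested.

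Macrophage and monocyte markers were split. Of 30, 27 were measured, with sums of 27780 to 61810 in the combination and 20970 to 50140 in cisplatin. Cd14 held much of these sums, at 10989, 44243, 16393 and 16417 in the combination and 8521, 37034 and 23727 in cisplatin. It had 987 to 10153 in the macrophage libraries, so these sums do not measure macrophages alone. Of the 23 tested members 11 lay above 0 (median -0.04). Those lower without overlap were 4 genes of tissue-resident macrophages and complement: C1qb, C1qc, Folr2 and Lyve1, against 4.16% of all genes. C1qc, a chain of complement C1q (GRCm38 chromosome 4, 136889804 to 136893065, minus strand), had 106, 155, 57.2 and 139 in the combination and 248, 186 and 328 in cisplatin (log2 fold change -1.20 ± 0.36 SE, adjusted p = 0.264). Its level in macrophage libraries was far higher, at 1216 and 810.1 in the combination and 2794, 2806, 4058 and 3002 in cisplatin (log2 fold change -1.65 ± 0.27 SE, adjusted p = 0.00489), against 1.83% of 8514 genes that passed as lower in macrophages. C1qc thus passed as lower in macrophages and not in neutrophils. The difference between the cell types did not pass either (difference of log2 fold changes 0.45 ± 0.48 SE, adjusted p = 0.811). Folr2, a folate receptor of resident macrophages, had 4.16, 1, 1 and 3.43 in combination neutrophils and 5.69, 18.6 and 25.7 in cisplatin neutrophils (log2 fold change -2.30 ± 0.61 SE, adjusted p = 0.194). Its values above 1 also allow higher decimal places, and so does the 57.2 of C1qc. Whether the C1q and Folr2 reads of the neutrophil libraries came from neutrophils or from sorted macrophages was not tested.

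Among the 15 genes with the smallest p in each direction outside these lists, several had no overlap but did not pass. Lst1, a leukocyte transcript, had 99.8, 77.5, 126 and 152 in the combination and 49.3, 42.3 and 28.5 in cisplatin (log2 fold change 1.47 ± 0.30 SE, adjusted p = 0.119). Aoah, a lipase that inactivates lipopolysaccharide, had 54.0, 67.8, 42.5 and 95.4 in the combination and 17.1, 15.2 and 25.7 in cisplatin (log2 fold change 1.67 ± 0.38 SE, adjusted p = 0.173). Both had every combination library above every cisplatin library as decoded. The cisplatin values of both genes also allow a higher decimal place, at which this order would not hold. In the other direction the ETS transcription factor gene Etv1 had 2.08, 5.81, 1 and 1 in the combination and 11.4, 25.4 and 37.1 in cisplatin (log2 fold change -2.94 ± 0.54 SE, adjusted p = 0.06). Among macrophages, where it passed, Etv1 had 4.87 and 4.26 in the combination and 177, 182, 152 and 196 in cisplatin (log2 fold change -4.99 ± 0.38 SE, adjusted p = 5.71e-06). These neutrophil values of Etv1 lie at or under 37.1 normalised reads, and those above 1 also allow higher decimal places. Vdac1, the mitochondrial outer membrane channel, had 56.1, 29.0, 40.8 and 59.0 in the combination and 100.5, 103 and 101 in cisplatin (log2 fold change -1.17 ± 0.25 SE, adjusted p = 0.13). The combination values of Vdac1 also allow a higher decimal place, which would lie above cisplatin. Pmp22, a membrane protein of myelin, had 31.2, 27.1, not decoded and 19.9 in the combination and not decoded, 171 and 339 in cisplatin (log2 fold change -3.18 ± 0.53 SE, adjusted p = 0.06), but its decoded combination values also allow 312, 271 and 199, which would overlap with cisplatin. In macrophages Pmp22 had 230 and 247 in the combination and 1577, 295, 1974 and 1337 in cisplatin. Whether its reads in neutrophil libraries came from neutrophils was not tested.

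**Figure D4:**
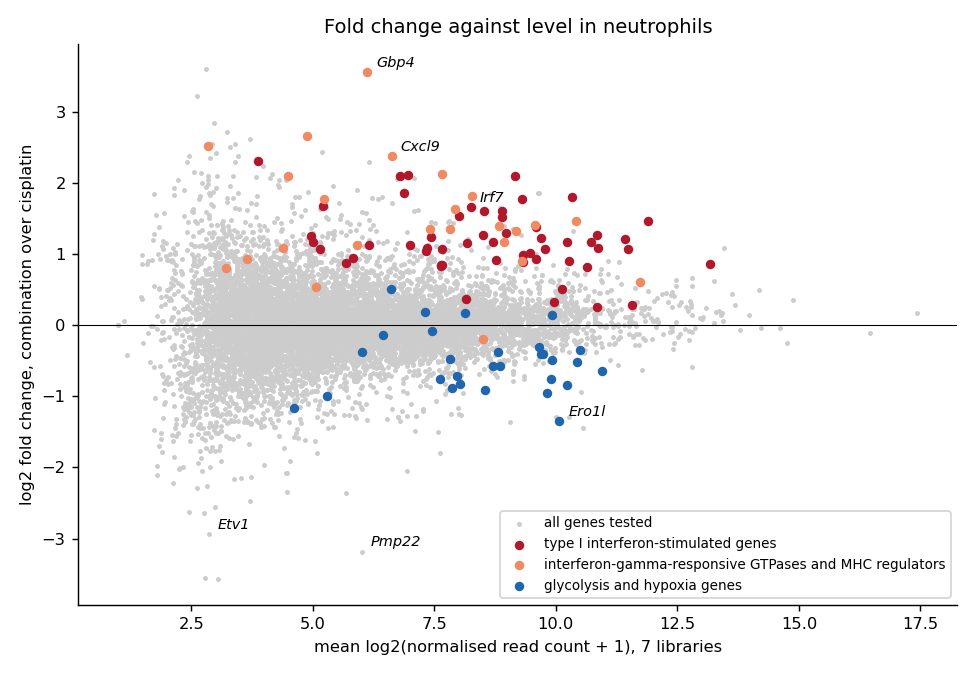
Log2 fold change of the combination over cisplatin (y axis) against the mean log2(normalised read count + 1) over the 7 libraries (x axis) for each of the 8828 genes tested, with 3 lists coloured and 6 genes labelled. The interferon genes lie above 0 across the range of levels except 1 member of the GTPase list, Ifngr1, Gbp4 stands at 3.55, and the glycolysis and hypoxia genes lie mostly below 0.

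Glycolysis and hypoxia genes had 25 of 29 tested members below 0 and a median of -0.52, and 2 were lower without overlap, against 4.16% of all genes. Ero1l, an oxidoreductase of the endoplasmic reticulum that hypoxia induces, had 441, 972, 988 and 625 in the combination and 1388, 3719 and 1195 in cisplatin (log2 fold change -1.35 ± 0.41 SE, adjusted p = 0.269). Ldha, the lactate dehydrogenase subunit, had 497, 736, 779 and 739 in the combination and 1069, 2485 and 850 in cisplatin (log2 fold change -0.95 ± 0.34 SE, adjusted p = 0.374). Cisplatin replicate 2 was more than 2-fold above the other libraries in both genes. The list median was -0.25 without combination replicate 2 and cisplatin replicate 2, and -0.0846 to -0.914 when 1 library was left out. Its summed values overlapped, at 10990 to 22380 in the combination and 15880 to 42300 in cisplatin.

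Proliferation genes had 15 of 24 tested members below 0 and a median of -0.45, at low levels. Top2a, the DNA topoisomerase of dividing cells, had 6.24, 7.75, 6.53 and 12.4 in the combination and 45.5, 15.2 and 55.6 in cisplatin (log2 fold change -1.97 ± 0.53 SE, adjusted p = 0.198), without overlap as decoded. The combination values of Top2a also allow higher decimal places. Cisplatin macrophages had 261, 103, 87.8 and 330 for Top2a, and combination macrophages were not decoded. Whether the Top2a reads of neutrophil libraries came from neutrophils was not tested. The median turned to 0.163 among genes with a mean of at least 100 and to 0.0982 in 2 unambiguous genes, so no direction is given for this list.

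**Figure D5:**
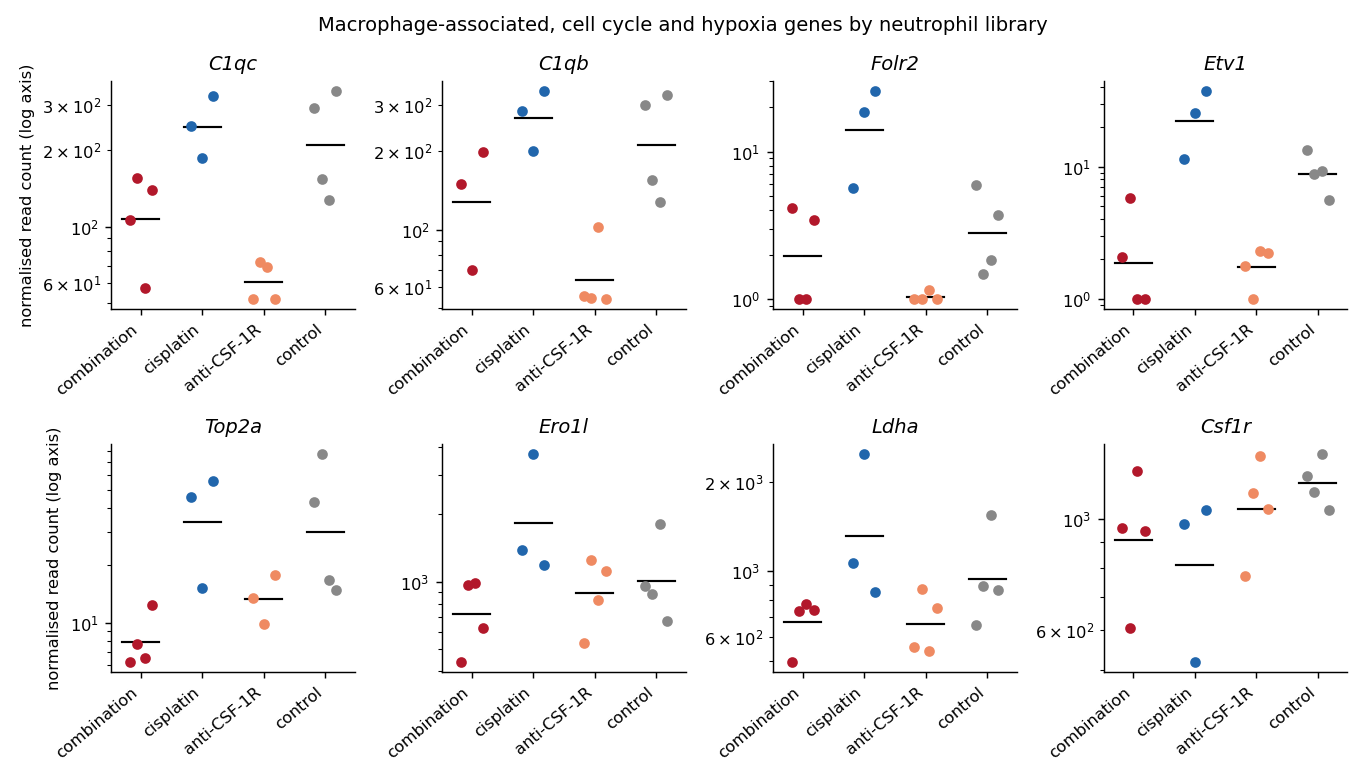
Normalised read count (y axis, log scale) of 8 genes of macrophages, the cell cycle, hypoxia and the CSF-1 receptor in each neutrophil library, by group, with the group mean of the logs as a line and no point where the value was not decoded. C1qc lies at 57.2 to 155 in the combination and 186 to 328 in cisplatin, whereas the groups of Csf1r overlap.

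Inflammatory genes, granule genes and genes tied to tumour promotion had medians of -0.02 to 0.24. Inflammatory cytokines and NF-kB targets had 26 of 33 tested members above 0 with a median of 0.24, and 2 were higher without overlap, against 5.74% of all genes. Il1b had 17099, 67729, 16451 and 20066 in the combination and 12376, 45289 and 30048 in cisplatin (log2 fold change -0.04 ± 0.50 SE, adjusted p = 0.989). Secondary and tertiary granule genes had 10 of 17 above 0 with a median of 0.24, which was 0.56 without combination replicate 2 and cisplatin replicate 2, and the 3 tested primary granule genes lay below 0 with a median of -0.02. Genes tied to tumour-promoting neutrophils had 14 of 27 above 0 with a median of 0.12. In the granule and tumour-promoting lists the members without overlap were Camp, an antimicrobial granule peptide, at 14.7 and 21.3 in combination replicates 3 and 4 and listed at 1 in cisplatin replicates 1 and 3, and Nos2, the inducible nitric oxide synthase, at 37.6 and 12.4 in combination replicates 3 and 4 and 58.8 and 225 in cisplatin replicates 1 and 2. Their other libraries were not decoded, and separation of 2 values from 2 carries little weight. Camp was 1 of 17 secondary and tertiary granule genes, against 5.74% of all genes that were higher without overlap. Nos2 was 1 of 27 genes tied to tumour-promoting neutrophils, against 4.16% that were lower without overlap. Arg1, which encodes arginase 1, had not decoded, 138, 75.1 and 312 in the combination and 212, 396 and 519 in cisplatin (log2 fold change -1.25 ± 0.54 SE, adjusted p = 0.499), with overlap. Genes of the p53 and DNA damage response, the pathway that cisplatin lesions engage, had 14 of 29 above 0 with a median of -0.04, where both groups had received the drug. Cdkn1a, the p53 target that encodes p21, had 2434, 4710, 2711 and 2233 in the combination and 2508, 7491 and 4746 in cisplatin (log2 fold change -0.63 ± 0.37 SE, adjusted p = 0.677). Il1b and Cdkn1a overlapped between the groups and were highest in replicate 2 of each.

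Anti-CSF-1R without cisplatin was set against control antibody in separate libraries, which asks whether the antibody moved the same genes when the mice had not received the drug. Type I genes lay above 0 in 45 of 50 tested members (median 0.80), 16 of them higher at an unadjusted p under 0.05, against 4.91% of 9036 genes, and 2 genes of the 9036 passed in either direction (0.0221%). The GTPase list lay above 0 in 17 of 19 (median 0.66). Several genes of both lists were not decoded in anti-CSF-1R replicate 3 and control replicates 2 and 3. Their fold changes here, and the differences tested below, rest on fewer libraries. Irf7 had 171, 113, not decoded and 384 with anti-CSF-1R and 97.7, not decoded, not decoded and 300 with control antibody. Rsad2 had 717, 115, 104 and 1614 with control antibody, where replicates 2 and 3 were the lowest. Irgm2 had 430, 299, 440.1 and 375 with anti-CSF-1R and 109.6, 62.1, 87.0 and 62.0 with control antibody (log2 fold change 2.28 ± 0.24 SE, adjusted p = 0.0001235), so it rose with the antibody alone, and the groups did not overlap. Across 8755 genes the log2 fold changes of the 2 comparisons, which share no library, correlated at a Pearson's r of 0.251 and a Spearman's rho of 0.204, given as a description because genes are not independent. The difference between the 2 antibody effects was tested for each gene: none of 8755 passed, and 484 reached an unadjusted p under 0.05 (5.53%). Of 50 type I genes 2 and of 19 in the GTPase list 3 reached that level, so neither a larger nor an equal response under cisplatin was shown.

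The same comparison in macrophages (2 combination and 4 cisplatin libraries) had 50 of 51 type I genes above 0 with a median of 1.41, and 13 passed there, against 1.81% of 8514 genes that passed as higher. The difference between neutrophils and macrophages passed for 4 of 8936 genes (0.0448%), none of them an interferon gene of these lists. Fabp5, a fatty acid binding protein, had 148, 149, 81.7 and 121 in combination neutrophils and 62.6, 59.2 and 42.8 in cisplatin neutrophils, and 955 and 739.7 in combination macrophages and 100.4, 84.0, 89.1 and 64.8 in cisplatin macrophages. The groups did not overlap in either cell type, the neutrophil difference did not pass on its own (adjusted p = 0.183), and the log2 fold change was smaller in neutrophils (difference of log2 fold changes -2.16 ± 0.38 SE, adjusted p = 0.0144). Met, the receptor of hepatocyte growth factor, had 49.9, 46.5, 73.5 and 59.0 in combination neutrophils and 131, 32.2 and 71.3 in cisplatin neutrophils, which overlapped. Its log2 fold change was -0.25 ± 0.35 SE in neutrophils and 3.15 ± 0.45 SE in macrophages (difference -3.40 ± 0.58 SE, adjusted p = 0.0132). Elmo1, an activator of Rac in engulfment and migration, had log2 fold changes of 0.25 ± 0.22 SE in neutrophils and -1.50 ± 0.23 SE in macrophages (difference 1.74 ± 0.30 SE, adjusted p = 0.0132). Tecr, an enzyme of fatty acid elongation, had 0.41 ± 0.27 SE in neutrophils and -1.57 ± 0.25 SE in macrophages (difference 1.98 ± 0.37 SE, adjusted p = 0.0232). The number of such genes ran from 0 without macrophage combination replicate 2 to 22 without macrophage cisplatin replicate 2, and the macrophage combination group has 2 libraries.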

How the data were processed

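Intratumoral neutrophils were sorted by FACS, and 10 ng of their RNA entered NuGen's Ovation V2 and Encore Rapid kits before sequencing on an Illumina HiSeq, per the labels' protocols. Build mm10, DESeq2, R 3.3.1, TopHat2 2.0.11, CASAVA 1.8 and Partek 6.6 were used, per the submitters' processing notes. The sources used here do not say which of them did what. The values the authors deposited are a signal: read counts divided by a factor per library, with a lowest value of 1. In each of the 7 libraries 100% of values of 1000 and above were whole multiples of the value of 1 read.

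Printed values had lost decimal points. Places that give whole reads were listed, 66.5% of values of the 7 libraries had several, and a negative binomial model of each gene, with group means drawn around a common mean, gave each place a probability. Values under 0.95 were left out (6.0%), and the model expected 1.36% of all places to be wrong. In simulated libraries 0.031% of kept values were wrong, but those left out 3.1% of values against 6.0% here, so real values were harder to place. A wrong place can follow the groups, so genes with 1 possible place are given separately.

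Genes with at least 10 in at least 2 neutrophil libraries and at least 2 decoded values in each compared group were tested with limma 3.58.1 under R 4.3.3 on log2(value + 1) (lmFit, eBayes with a trend, two-sided), the 15 neutrophil libraries in 1 fit of 4 groups, or 27 libraries in 1 fit of 8 groups against macrophages, at a Benjamini-Hochberg threshold of 0.05. The requirement for 2 decoded values was added after the values were seen. Lists carry no test, and a list is described by counts and its median. The members and the 32 lists were chosen with earlier results of these data known. Named genes were those past the threshold, the 15 with the smallest p each way, the 4 smallest p of each list and fixed markers, 161 in all, and other genes were named after their values were seen. The promoter motif was planned for called type I genes; the 1 called gene belongs to the GTPase list, so it was searched after the values were seen. Sequences are from RefSeq (GRCm38.p6) and positions from GENCODE vM21, where 227 of 229 genes named or listed matched. Labels number no replicates, so numbers follow sample order and pair nothing. Decoding and tables were made with pandas 2.3.3, scipy 1.17.1, numpy 2.4.6 and Python 3.11.15, and plots with matplotlib 3.10.9. Alternatives covered the decoding, pseudocount, filter, scaling, weights, limma-voom, libraries in the fit and each library left out. The values of 1 list member are not reported here.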

Additional observations from a re-analysis of the deposited data

Results flagged for a closer look

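In 69 groups of 4 libraries examined, 3 had a library far from the other 3, and chance flags about 5% of groups. Ptpn22 stood at 45.7 in combination replicate 1, against 87.9 to 91.0 in the other combination libraries, and Ldha at 497 there, against 736 to 779. The GTPase list had a mean log2 deviation of 0.233 in control replicate 4, against -1.38 to -1.18 in the other control libraries.

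The difference between neutrophils and macrophages in combination against cisplatin passed the test for Met (-3.40), Elmo1 (1.744), Fabp5 (-2.162) and Tecr (1.977), at adjusted p = 0.0132, 0.0132, 0.0144 and 0.0232 with limma.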

How the results depend on the processing

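The number of genes past the threshold in combination against cisplatin, 1 in the fit reported, was 60 with group means free of each other in the decoding, 18 with the most probable place for every value (Gbp4 not among them), 4 with a pseudocount of 5 and 2 with only the 7 libraries. It was 0 with decoding blind to the groups, with no filter, with a mean of at least 100, with quantile normalisation, with array weights, with limma-voom, without combination replicate 2 and cisplatin replicate 2 together, and over unambiguous genes alone, an alternative chosen after seeing the data. With 1 library left out it was 0 to 6, with 6 without combination replicate 3, 4 without cisplatin replicate 1, 2 without combination replicate 1 and 0 without combination replicate 4, cisplatin replicate 2 or cisplatin replicate 3. In simulated libraries the decoding with free group means gave 42 false among 171 calls. The difference between the antibody effects with and without cisplatin passed for 0 to 2 genes with 1 library left out. The difference between cell types passed for 13 genes with a pseudocount of 5 and for 0 to 22 with 1 library left out, including 8 without neutrophil combination replicate 2, 7 without neutrophil combination replicate 3 and 1 without macrophage combination replicate 1; a macrophage combination group of 1 library is assumed to vary like the other groups. The medians of both interferon lists stayed above 0 under all 21 alternatives, at 0.826 to 1.35 for type I genes and 1.17 to 1.73 for the GTPase list. With 1 library left out, the log2 fold change of Met ran from -0.7679 to 0.2275, turning without cisplatin replicate 1, and that of Csf1r from -0.1483 to 0.366, turning without cisplatin replicate 2; the cause was not tested. Among log2 fold changes of named genes under alternatives, 943 kept direction and side of the threshold, 27 came to pass it, 10 (all of Gbp4) no longer passed and 2 turned. No paired analysis was possible because the labels number no replicates. Low genes are limited by depth: 1 read is worth 0.686 to 2.08 normalised counts in the 7 libraries, so values under 10 rest on few reads.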
